A study of Arabidopsis thaliana with 36 samples.

Results

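The data described here are the transcriptomes of unstressed Arabidopsis thaliana seedlings labelled as lacking both the S1P and the S2P protease, set against unstressed wild type (WT) seedlings. The members are the 3 libraries labelled s1p/s2p mock and the 3 labelled WT mock, 6 of 36 libraries in a series of 12 groups with 3 libraries each. Seedlings of 12 days were held for 6 h in water with DMSO, the solvent of tunicamycin (the mock condition), and RNA of the whole seedling was sequenced from its 3′ ends. Both groups therefore carry the solvent and the time in water, and neither is an untouched plant. The labels give s1p/s2p as a double knockout and name neither its alleles nor the lines. Further groups used below are s1p/s2p and WT seedlings after tunicamycin (Tm, 5 µg/ml), and the double mutants bzip17/28, bzip28/60 and bzip17/60 under mock.

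S1P and S2P are proteases of the Golgi. They cut membrane-anchored transcription factors, of which bZIP17 and bZIP28 are the best studied in Arabidopsis, and the released part enters the nucleus. In the unfolded protein response (UPR), bZIP28 leaves the endoplasmic reticulum (ER) when misfolded proteins accumulate, while a separate branch, bZIP60, is activated by IRE1, which splices its mRNA. S1P is also known to cut proteins outside this response, among them the precursor of the peptide RALF23 and the inhibitory part of a pectin methylesterase. The comparison asks which transcripts differ in the double mutant before any chemical stress is applied.

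The s1p/s2p seedlings differed from WT in sulfur, root and ER genes, mostly by modest amounts. Of 10480 genes tested, 774 were called at an adjusted p under 0.05 (edgeR's quasi-likelihood test with Benjamini-Hochberg adjustment), which is 7.39% of them. Of these, 295 rose (2.81% of the genes tested) and 479 fell (4.57%). The difference was under 2-fold for 67.4% of the called genes. On the log2 scale, 13 genes rose by at least 2 and 27 fell by at least 2. The 3 and 3 libraries did not overlap for 288 of the 295 genes that rose and for 454 of the 479 that fell, against 25% of all genes tested. Scaling by library size alone gave 481 higher and 340 lower genes, and it moved the median of all genes by 0.09 on the log2 scale, so small differences lean on the scaling. Leaving out single libraries gave 435 calls without WT replicate 1, 512 without WT replicate 3, 450 without s1p/s2p replicate 2 and 467 without s1p/s2p replicate 3.

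The libraries were of similar depth. The s1p/s2p mock libraries held 1767026 to 2176744 counts assigned to genes and the WT mock libraries 1559173 to 1884691. Reads outside annotated genes made up 3.04 to 3.48% of reads in s1p/s2p and 4.01 to 4.49% in WT. The spread between replicates, as a coefficient of variation beyond counting error, was 11.1% in s1p/s2p and 14.3% in WT. On the second principal component of the 15 mock libraries, which held 14.5% of the variance, WT lay at -33.5 to -26.9 and the 12 mutant libraries of all 4 double mutants at 1.28 to 14.9. The first component, with 26.8% of the variance, set bzip17/28 apart at 38.1 to 41.3, with the other 12 mock libraries at -23.5 to 7.07. The labels name no batch, so a difference in library preparation between WT and the mutants cannot be told apart from genotype. The direct contrast with bzip17/28 mock, which uses no WT library, is given beside part of the results for that reason. It shares the s1p/s2p libraries with the contrast to WT, and its other side is the group farthest from the rest on the first component. Where only the contrast to WT is given, a difference of WT from all mutants cannot be told apart from one of s1p/s2p.

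The genes of the genotypes could not check the label. S1P (AT5G19660) had 0 counts in all 6 libraries, and S2P (AT4G20310) had 1 count in s1p/s2p replicate 2 and 0 elsewhere. Both have several transcript models in the files, and reads shared by models of a gene were set aside in the counting, so a 0 here does not show that a gene was silent. The substrates were measurable. BZIP28 stood at 33.7, 29.1 and 19.9 CPM (counts relative to the scaled size of the library) in s1p/s2p and at 21.3, 29 and 23.4 CPM in WT, a log2 difference of 0.16 ± 0.24 (SE). BZIP17 stood at 8.81, 5.24 and 10.4 CPM in s1p/s2p, against 3.04, 7.6 and 11.7 CPM in WT. Neither passed the test, and the libraries of both genotypes overlapped. BZIP49, another membrane-anchored relative, was at 0 in s1p/s2p and had 1 count in WT.

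The gene next to S2P was higher in s1p/s2p. AT4G20300, which lies at chr4:10955311-10959239 in the TAIR10.1 assembly while S2P lies at chr4:10961556-10964089, had 45.6, 46.6 and 64.8 CPM in s1p/s2p and 22.5, 29.7 and 24.5 CPM in WT. The log2 difference was 1.05 ± 0.18 (SE; edgeR adjusted p = 0.000231). Against bzip17/28 it was 0.75 ± 0.17 (edgeR adjusted p = 0.00204). After tunicamycin the gene stood at 65.8, 60.7 and 50.8 CPM in s1p/s2p and 28.5, 28.5 and 27 CPM in WT. It was named for its position after its values were seen.

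Genes of the ER moved in both directions without stress. Among 6 lists of ER genes (UPR regulators, protein folding, translocation, degradation, ER to Golgi transport and N-glycosylation), 5 tested members rose, 5 fell and 52 did not pass the test. Of all genes tested, 2.81% rose and 4.57% fell. BZIP60, the factor of the IRE1 branch, had 215, 185 and 189.9 CPM in s1p/s2p, against 142, 118 and 114 CPM in WT. Its log2 difference was 0.66 ± 0.13 (SE; edgeR adjusted p = 0.000994), and every s1p/s2p library lay above every WT library. BI1, a membrane protein that restrains cell death under ER stress, rose by 0.60 ± 0.12 to 322, 357 and 261 CPM in s1p/s2p, against 228, 187 and 206 CPM in WT. In bzip17/28 it was higher still, at 428, 406 and 444 CPM (s1p/s2p minus bzip17/28 -0.45 ± 0.12, edgeR adjusted p = 0.0118).

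The third regulator called, TIN1, a plant ER protein named for its induction by tunicamycin, fell. It had 2.07, 2.33 and 2.72 CPM in s1p/s2p and 7.91, 6.91 and 8.36 CPM in WT, a log2 difference of -1.67 ± 0.45 (SE; edgeR adjusted p = 0.0161). The groups did not overlap, though each value rests on few reads, and the call was lost in 4 of the 6 fits that left out 1 library. The bzip17/28 libraries were also low, at 3.99, 2.88 and 1.74 CPM.

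The ER folding genes were split. Of 21 tested, 2 rose and 2 fell, a share called of 19% beside 7.39% of all genes tested. The median log2 difference was -0.09, beside 0.01 over all genes tested. The disulfide isomerase PDIL2-3 had 93.3, 104 and 91.1 CPM in s1p/s2p, against 55.3, 60.1 and 42.9 CPM in WT (0.87 ± 0.16 on the log2 scale, edgeR adjusted p = 0.000401). PDIL1-2 had 63.3, 70.5 and 50.8 CPM in s1p/s2p, against 49.3, 25.6 and 35.7 CPM in WT (0.72 ± 0.19, edgeR adjusted p = 0.0155). For both, all s1p/s2p libraries were above all WT libraries, narrowly for PDIL1-2. Another isomerase, PDIL1-1, fell to 48.2, 60.6 and 56.6 CPM in s1p/s2p, against 94.3, 82.2 and 79.7 CPM in WT (-0.63 ± 0.16, edgeR adjusted p = 0.00965). P58IPK, an ER-lumenal DnaJ co-chaperone, fell to 48.7, 71.7 and 50.3 CPM in s1p/s2p, against 122, 104 and 114 CPM in WT (-0.999 ± 0.261, edgeR adjusted p = 0.0126). None of these 4 passed the test against bzip17/28, where PDIL1-1 stood at 56.3, 49.5 and 49.2 CPM and P58IPK at 48.3, 53.6 and 70.5 CPM. The calls of P58IPK, PDIL1-1 and PDIL1-2 were lost in 2 or 3 of the 6 fits that left out 1 library, with edgeR adjusted p up to 0.117.

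The main ER chaperones did not pass the test. BIP1, the lumenal Hsp70 that holds bZIP28 in the ER, had 130.1, 154 and 146 CPM in s1p/s2p and 168, 135 and 119.9 CPM in WT, a difference of 0.02 ± 0.14 (SE). CNX1, the lectin chaperone calnexin, had 176, 245 and 223 CPM in s1p/s2p and 252, 191 and 193 CPM in WT (0.02 ± 0.15). Both sets of libraries overlapped. CRT1b, a calreticulin, stood at 49.3, 67.6 and 57.6 CPM in s1p/s2p and at 96.7, 75.3 and 82.5 CPM in WT (-0.55 ± 0.19, edgeR adjusted p = 0.0609). SDF2 had 29.6, 38.5 and 27.6 CPM in s1p/s2p and 42.6, 53.2 and 40.1 CPM in WT (-0.51 ± 0.18, edgeR adjusted p = 0.0783). These last genes were lower in s1p/s2p without overlap but missed the threshold. CRT1b was called lower in 4 of the alternatives (adjusted p from 0.0123 in an edgeR fit of only the 15 mock libraries to 0.0449 with no filter) and SDF2 in 1. ERDJ3B (-0.32), SHD (-0.57), IRE1A (-0.12) and NAC103 (0.87) were not called either. BIP2, BIP3, ERDJ3A and IRE1B had 0 counts in all 6 libraries, and each has several transcript models.

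**Figure D1:**
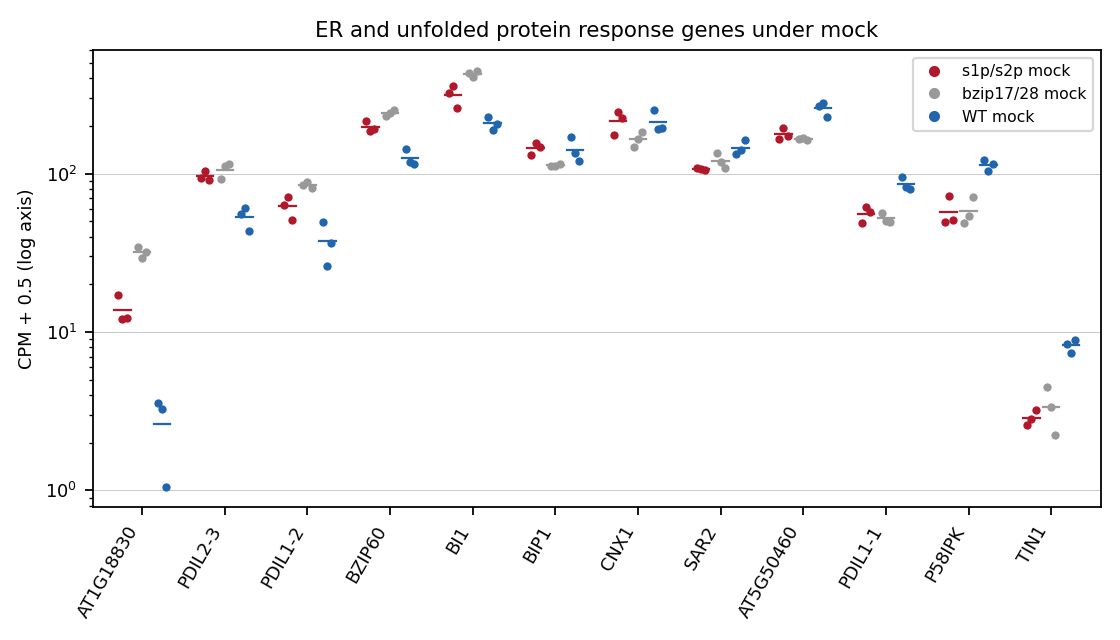
CPM + 0.5 on a log axis for 12 ER and UPR genes in s1p/s2p, bzip17/28 and WT mock libraries; points are single libraries and bars are means of 3. AT1G18830, PDIL2-3, BZIP60 and BI1 are higher in s1p/s2p than in WT, AT5G50460, PDIL1-1, P58IPK and TIN1 are lower, and BIP1 and CNX1 overlap.

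Transport between the ER and Golgi held the list member with the largest rise. AT1G18830, which encodes a SEC31A subunit of the COPII coat that buds vesicles from the ER, had 16.6, 11.7 and 11.8 CPM in s1p/s2p and 3.04, 2.76 and 0.558 CPM in WT. The log2 difference was 2.66 ± 0.41 (SE; edgeR adjusted p = 4.25e-05). The gene was among the 10 largest rises, which were named only where the libraries did not overlap. It was higher still in bzip17/28, at 33.7, 28.8 and 31.3 CPM (s1p/s2p minus bzip17/28 -1.23 ± 0.23, edgeR adjusted p = 0.000228). SAR2, a small GTPase that starts the COPII coat, had 108, 107 and 105 CPM in s1p/s2p and 133, 139.6 and 162 CPM in WT (-0.44 ± 0.13), a call lost in 6 of 16 alternatives. AT5G50460, a gamma subunit of the SEC61 channel that carries proteins into the ER, fell to 166, 194 and 171 CPM in s1p/s2p, against 266, 278 and 228 CPM in WT (-0.54 ± 0.12, edgeR adjusted p = 0.00422). In bzip17/28 it stood at 164, 168 and 161 CPM. None of 7 degradation genes and none of 8 N-glycosylation genes passed the test.

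The promoters of these genes were searched for the elements that bZIP17, bZIP28 and bZIP60 are known to bind, in the 300 bases before the annotated gene start. The called ER genes are shown because both rising and falling ones carry them. Each line gives 30 bases on the gene's strand from RefSeq's TAIR10.1 sequence, with the letters of the element in capitals. ERSE is CCAAT and CACG with 10 bases of any kind between them, and the UPRE core is TGACGTG, each read on both strands.
PDIL1-1 ERSE, chr1:7645418-7645447: gatatCGTGacgcttgtacATTGGtgcgga
PDIL1-1 UPRE, chr1:7645395-7645424: agagaagaagcCACGTCAttgtcgatatcg
P58IPK ERSE, chr5:749977-750006: tcataCGTGtttaattatcATTGGttacta
P58IPK ERSE, chr5:750037-750066: ttccaCGTGggtcataacgATTGGatagaa
TIN1 UPRE, chr5:25784127-25784156: tagttggttatCACGTCAgtctaacacact
TIN1 UPRE, chr5:25784261-25784290: tgactcaacacCACGTCAcacatcgtttat
TIN1 UPRE, chr5:25784325-25784354: ctaatactctcCACGTCAtcatctcttccc
AT5G50460 UPRE, chr5:20552671-20552700 (minus strand): tacgagcccatttaaaaagcTGACGTGtta
PDIL1-2 ERSE, chr1:29126579-29126608: tttatCCAATgaaaactctcCACGtgtatg
BI1 ERSE, chr5:19135768-19135797: atccaCGTGgatgattcttATTGGttagat
AT1G18830 UPRE, chr1:6489111-6489140: caacacacaaaTGACGTGtcggattgtgaa

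An ERSE stood in 2 of the 5 ER genes that rose, in 2 of the 5 that fell and in 6 of the 52 not called. The UPRE core stood in 1 of the 5 that rose, 3 of the 5 that fell and 6 of the 52 not called. Over all called genes with a promoter, an ERSE was found in 7 of 294 that rose (2.38%) and 8 of 476 that fell (1.68%), beside 1.11% of the promoters of tested genes and 0.615% of all promoters. The UPRE core was found in 3.06% of genes that rose and 5.25% of those that fell, beside 3.62% of tested genes and 2.75% of all promoters. The G-box CACGTG, which can overlap the end of an ERSE, was found in 11.6% of genes that rose and 6.72% of those that fell, beside 7.88% of tested genes and 5.98% of all promoters. ERSE-II, which is ATTGG and CCACG with 1 base of any kind between them, was in no called gene, in 0.0384% of tested genes and in 0.0501% of all promoters. A match describes the letters only.

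The families of the other S1P substrates were looked at as transcripts. Of 34 RALF peptide genes, 8 were tested and none was called, at a median log2 difference of -0.45. Of the 8, 4 were lower in s1p/s2p without overlap, beside 13% of all genes tested. The fit of only the 15 mock libraries, which called 1203 genes against 774 in the main fit, called 3 lower. Of 130 genes for pectin methylesterases and their inhibitors, 37 were tested, 2 rose and 2 fell, a share called of 10.8% beside 7.39% of all genes tested. AT2G47050 fell to 14, 13.4 and 9.52 CPM in s1p/s2p, against 43.2, 56 and 14.5 CPM in WT (-1.61 ± 0.31, SE; edgeR adjusted p = 0.000811). WT replicate 3 stood close to the s1p/s2p values.

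Sulfur assimilation genes rose. Of 21 members, 15 were tested and 8 rose, against 2.81% of all genes tested; none fell. The median log2 difference was 0.92, beside 0.01 over all genes tested, and it was positive for 14 of the 15. SULTR4;1, which releases sulfate from the vacuole, had 82.4, 74.6 and 81.6 CPM in s1p/s2p and 38.9, 40.8 and 46.3 CPM in WT (0.92 ± 0.18, SE; edgeR adjusted p = 0.000839). APR1, the reductase that commits sulfate to cysteine, had 115, 119 and 92.4 CPM in s1p/s2p and 57.8, 46.3 and 60.8 CPM in WT (0.98 ± 0.20, edgeR adjusted p = 0.0019). The s1p/s2p libraries stood clear of WT for both. LSU3, of a small family induced when sulfur is short, had 39.4, 23.9 and 20.8 CPM in s1p/s2p and 7.91, 4.84 and 6.13 CPM in WT (2.13 ± 0.43, edgeR adjusted p = 0.0013). Its relative LSU1 had 32.7, 26.2 and 16.3 CPM in s1p/s2p and 7.91, 6.22 and 4.46 CPM in WT (2.00 ± 0.49, edgeR adjusted p = 0.00845).

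LSU1 and the other 4 sulfur genes called are named to complete the count, after their values were seen. The other 4 were LSU2 (1.22), the sulfur deficiency gene ATSDI1 (1.82), the APS kinase gene APK (0.88) and the ATP sulfurylase gene APS1 (0.55). The bzip17/28 libraries were at least as high for most of them. LSU1 stood at 52.3, 65.9 and 80.5 CPM there, above s1p/s2p (s1p/s2p minus bzip17/28 -1.41 ± 0.33, edgeR adjusted p = 0.00336). APK was also lower in s1p/s2p than in bzip17/28 (-0.79, edgeR adjusted p = 0.0101). Over the sulfur list, 2 genes were higher and 2 lower in s1p/s2p than in bzip17/28, a contrast in which 10.2% of all genes were called. Leaving out 1 library at a time left 5 to 8 sulfur genes higher and none lower, with 5 without WT replicate 2 or without s1p/s2p replicate 1.

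**Figure D2:**
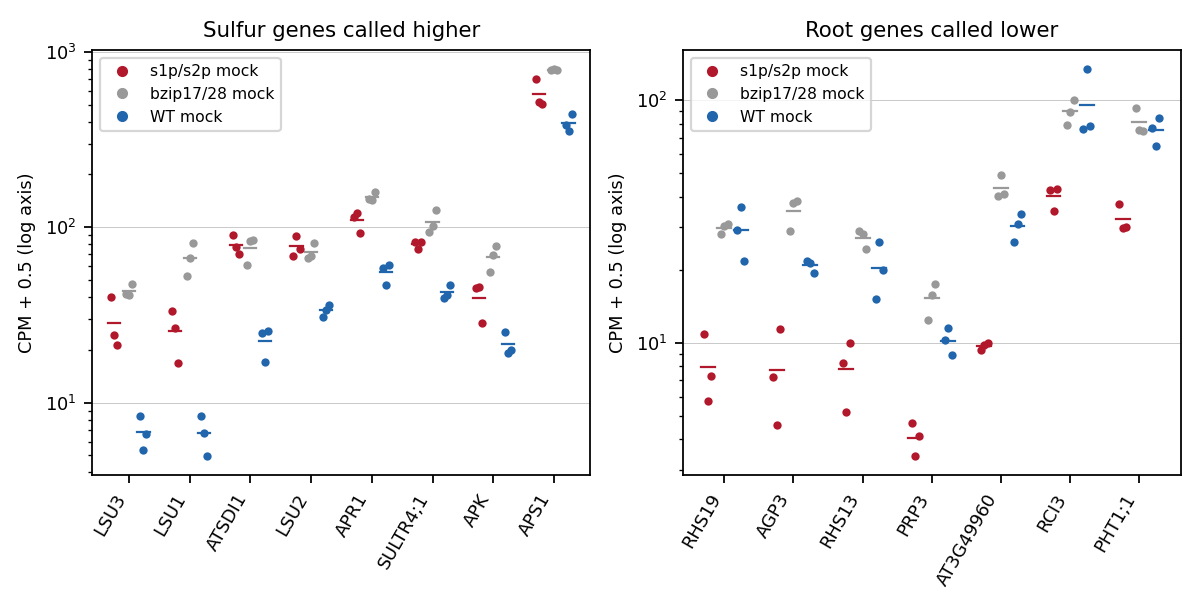
CPM + 0.5 on a log axis for the 8 sulfur genes called higher (left) and 7 root genes called lower (right) in s1p/s2p, bzip17/28 and WT mock libraries; points are single libraries and bars are means of 3. For the sulfur genes s1p/s2p lies above WT, and bzip17/28 lies higher still for LSU1 and APK. For the 7 root genes drawn s1p/s2p lies below both. The peroxidase gene AT3G01190, lower than WT but close to bzip17/28, is not drawn.

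Glucosinolates are sulfur-rich defence compounds of this plant family. Of 15 tested genes of aliphatic glucosinolate synthesis, 3 rose (20%, beside 2.81% of all genes tested) and none fell. The glucosyltransferase gene UGT74B1 had 179.9, 227 and 186 CPM in s1p/s2p and 127, 118 and 102 CPM in WT (0.77 ± 0.14, SE; edgeR adjusted p = 0.000498). SOT18, the sulfotransferase of the last core step, rose by 0.77 ± 0.16. GSTU20 had 146, 332 and 147 CPM in s1p/s2p and 106, 79.5 and 112 CPM in WT, and it was called only with s1p/s2p replicate 2 included. Without that library its difference was 0.57 (edgeR adjusted p = 0.118). Among 13 indole glucosinolate and camalexin genes, SOT16 rose (0.72 ± 0.21), a call lost in 5 of the 6 fits that left out 1 library, and the methyltransferase gene IGMT1 fell (-0.97 ± 0.24).

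Few jasmonate, indole and salicylate genes passed the test against WT. The indole list had 1 gene higher and 1 lower of 13 tested (15.4%, beside 7.39% of all genes tested). AOS, which opens the jasmonate pathway, had 706, 572 and 454 CPM in s1p/s2p and 337, 293 and 299 CPM in WT (0.90 ± 0.20, SE; edgeR adjusted p = 0.00277), without overlap. With ERF1, a factor of the jasmonate and ethylene response (1.48 ± 0.44), it made up the 2 genes called of 17 jasmonate genes tested, with 1 called in 4 of the 6 fits that left out 1 library. The share called was 11.8% of the jasmonate genes tested, beside 7.39% of all genes tested. None of 16 salicylate and immune genes was called. The list medians against WT were 0.36 for jasmonate, -0.18 for salicylate and immune and -0.19 for indole genes in s1p/s2p, and 1.57, 1.22 and 0.94 in bzip17/28. In the direct contrast of s1p/s2p with bzip17/28, 10 of the 17 jasmonate genes, 8 of the 16 salicylate and immune genes and 7 of the 13 indole genes were called lower and none higher. In that contrast 6.05% of all genes were called lower. AOS was lower there by a log2 value of -0.68 (edgeR adjusted p = 0.0153).

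The tau class glutathione transferases, which detoxify reactive compounds, had 2 of 21 genes higher than in WT. That share of 9.52% was close to the 7.39% called of all genes tested. GSTU25 had 38.9, 55.9 and 39 CPM in s1p/s2p, 12.9, 14 and 15.67 CPM in bzip17/28 and 11.6, 20.7 and 16.2 CPM in WT. It was higher in s1p/s2p than in WT (1.46 ± 0.36, edgeR adjusted p = 0.00796) and than in bzip17/28 (1.64 ± 0.34, edgeR adjusted p = 0.000963), and the s1p/s2p libraries overlapped neither group. GSTU25 and GSTU20 were the pair called, and GSTU20 was called only with s1p/s2p replicate 2 included.

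Root hair genes were lower in s1p/s2p than in WT and than in bzip17/28. Root hairs are tubular outgrowths of epidermal cells that take up water and nutrients, and their wall proteins and peroxidases mark them. Of 26 members, 24 had a count and 13 were tested. Of the 13, 4 fell and none rose against WT, the median log2 difference was -1.39, and 12 were negative. Against bzip17/28, 12 of the 13 were called lower. Genes were tested where enough of the 36 libraries, of any group, held counts, so members could enter through bzip17/28 or another group. Fitting only the s1p/s2p and WT mock libraries tested 7 members, of which 4 fell, with a median of -1.39. Of all genes tested, 4.57% were called lower against WT and 6.05% against bzip17/28. The summed level of the list was 57.7 to 79.3 CPM in s1p/s2p, 214 to 239 CPM in bzip17/28 and 136 to 185 CPM in WT. RHS19, a root hair peroxidase, had 10.4, 5.24 and 6.8 CPM in s1p/s2p, 27.5, 29.7 and 30.5 CPM in bzip17/28 and 28.6, 35.9 and 21.2 CPM in WT. The difference was -1.90 ± 0.33 against WT (SE; edgeR adjusted p = 0.000259) and -1.95 ± 0.32 against bzip17/28 (edgeR adjusted p = 3.24e-05). AGP3, an arabinogalactan protein gene, had 6.74, 4.08 and 10.9 CPM in s1p/s2p and 21.3, 20.7 and 19 CPM in WT (-1.44 ± 0.35, edgeR adjusted p = 0.0084). RHS13 had 7.78, 4.66 and 9.52 CPM in s1p/s2p and 14.6, 25.6 and 19.5 CPM in WT (-1.39 ± 0.35, edgeR adjusted p = 0.0107). These genes did not overlap between s1p/s2p and WT, nor did PRP3, a proline-rich wall protein gene (-1.41 ± 0.43).

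In bulk seedlings, fewer cells of a type and less RNA per cell cannot be told apart, and this holds for all root genes here. The other tissue markers moved less. The summed endodermis and suberin markers were 219.7 to 281.0 CPM in s1p/s2p and 279.9 to 327.6 CPM in WT, with 1 of 16 tested genes, CASP4, called lower. The CASP4 call was lost in 10 of 14 alternatives, among them all 6 that left out 1 library. Root nutrient transporters summed to 1116 to 1308 CPM in s1p/s2p and 1284 to 1446 CPM in WT, with 3 of 13 lower. Nuclear photosynthesis genes summed to 157225 to 181495 CPM in s1p/s2p and 161857 to 173241 CPM in WT, with 3 of 36 higher and 2 lower. Cell division genes summed to 133 to 163 CPM in s1p/s2p and 117 to 165 CPM in WT, with none of 9 called. The part of tissue makeup in the root results was not tested. Without s1p/s2p replicate 2, 1 root hair gene stayed called lower than WT, and without WT replicate 2 the count was 2.

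Root nutrient transporters included 3 genes that fell (23.1% of those tested, beside 4.57% of all genes tested). The phosphate transporter PHT1;1 had 36.8, 29.1 and 29.5 CPM in s1p/s2p and 76.6, 64.3 and 83.6 CPM in WT (-1.24 ± 0.22, SE; edgeR adjusted p = 0.000281), and it was also lower than in bzip17/28 (-1.34 ± 0.21, edgeR adjusted p = 1.79e-05). AMT1;1, an ammonium transporter, had 195, 165 and 194 CPM in s1p/s2p and 306, 316 and 239 CPM in WT (-0.63 ± 0.13, edgeR adjusted p = 0.0013). HAK5, a high-affinity potassium transporter, had 17.1, 18.6 and 14 CPM in s1p/s2p; in WT it had 37.7 and 53.9 CPM in replicates 1 and 2 but 18.4 CPM in replicate 3, within the s1p/s2p range. Its call was lost without WT replicate 2 (edgeR adjusted p = 0.137). Phosphate starvation genes (9 tested) and iron uptake genes (15 tested) had no member called. The summed iron list was 1154 to 1325 CPM in s1p/s2p and 728 to 1023 CPM in WT, and other settings called 0 to 5 of its genes higher, 5 with no filter on low counts.

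Class III peroxidases, secreted enzymes that cross-link or loosen walls, were mostly lower. Of 41 tested, 8 fell and 1 rose, a share called of 22% beside 7.39% of all genes tested. AT3G49960 had 8.81, 9.32 and 9.52 CPM in s1p/s2p and 25.5, 30.4 and 33.5 CPM in WT (-1.69 ± 0.28, SE; edgeR adjusted p = 0.000129), and it was lower than in bzip17/28 too (-2.21 ± 0.26, edgeR adjusted p = 7.99e-08). RCI3 had 42, 34.4 and 42.6 CPM in s1p/s2p and 75.4, 133 and 77.5 CPM in WT (-1.25 ± 0.22, edgeR adjusted p = 0.000243). AT3G01190 fell by 1.05 ± 0.22 on the log2 scale against WT and differed from bzip17/28 by 0.04. The peroxidase gene that rose, AT4G08780, had 16.1, 16.9 and 10.9 CPM in s1p/s2p and 6.08, 5.53 and 6.13 CPM in WT (1.28 ± 0.33); it was named to complete the count after its value was seen. Without s1p/s2p replicate 2, 5 peroxidases were called lower.

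Aquaporins, the water channels of plasma membrane and vacuole, had 6 of 18 tested genes lower and none higher. That is 33.3%, beside 4.57% of all genes tested that were called lower. PIP3 had 299, 333 and 323 CPM in s1p/s2p and 577, 567 and 584 CPM in WT (-0.85 ± 0.13, SE; edgeR adjusted p = 4.78e-05), values that were tight in both groups. PIP1B had 6.22, 3.5 and 6.8 CPM in s1p/s2p and 17, 17.3 and 24.5 CPM in WT (-1.80 ± 0.42, edgeR adjusted p = 0.00482). The tonoplast channel gene GAMMA-TIP had 521, 601 and 525 CPM in s1p/s2p and 795, 742 and 913 CPM in WT (-0.57 ± 0.14, edgeR adjusted p = 0.00737). Leaving out WT replicate 3 left 3 aquaporins called and leaving out s1p/s2p replicate 3 left 4, and over the 6 such fits the count was 3 to 6. The summed list was 7502 to 9714 CPM in s1p/s2p, 9351 to 10584 CPM in bzip17/28 and 12767 to 12962 CPM in WT. Against bzip17/28, 3 aquaporins were called higher and 3 lower, beside 4.2% of all genes higher and 6.05% lower.

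Wall genes fell in 2 further families. Of 20 xyloglucan endotransglucosylase genes, whose enzymes cut and rejoin wall polysaccharide chains, 3 fell (15%, beside 4.57% of all genes tested). XTH24 had 1115, 904 and 1278 CPM in s1p/s2p and 2197, 2084 and 2297 CPM in WT (-0.996 ± 0.178, SE; edgeR adjusted p = 0.000334). Of 14 extensin and proline-rich wall protein genes, 4 fell (28.6%, beside 4.57% of all genes tested). EXT3, an extensin that scaffolds the new cell wall, had 571, 428 and 523 CPM in s1p/s2p and 813, 792 and 794 CPM in WT (-0.65 ± 0.16, edgeR adjusted p = 0.00855). Neither XTH24 nor EXT3 overlapped between the genotypes. The summed xyloglucan list was 3453 to 3758 CPM in s1p/s2p, 3185 to 3194 CPM in bzip17/28 and 5084 to 5363 CPM in WT. The summed extensin list was 1697 to 1918, 1775 to 1842 and 2269 to 2410 CPM in the same order. In both lists bzip17/28 was thus below WT too. Against bzip17/28, 3 xyloglucan genes were called higher and 4 lower, and 1 extensin gene higher and 7 lower. That contrast called 4.2% of all genes higher and 6.05% lower. Without s1p/s2p replicate 2, no extensin gene and 1 xyloglucan gene were called, and without s1p/s2p replicate 3 there was 1 of each. None of 12 expansins and none of 12 fasciclin-like arabinogalactan protein genes was called.

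**Figure D3:**
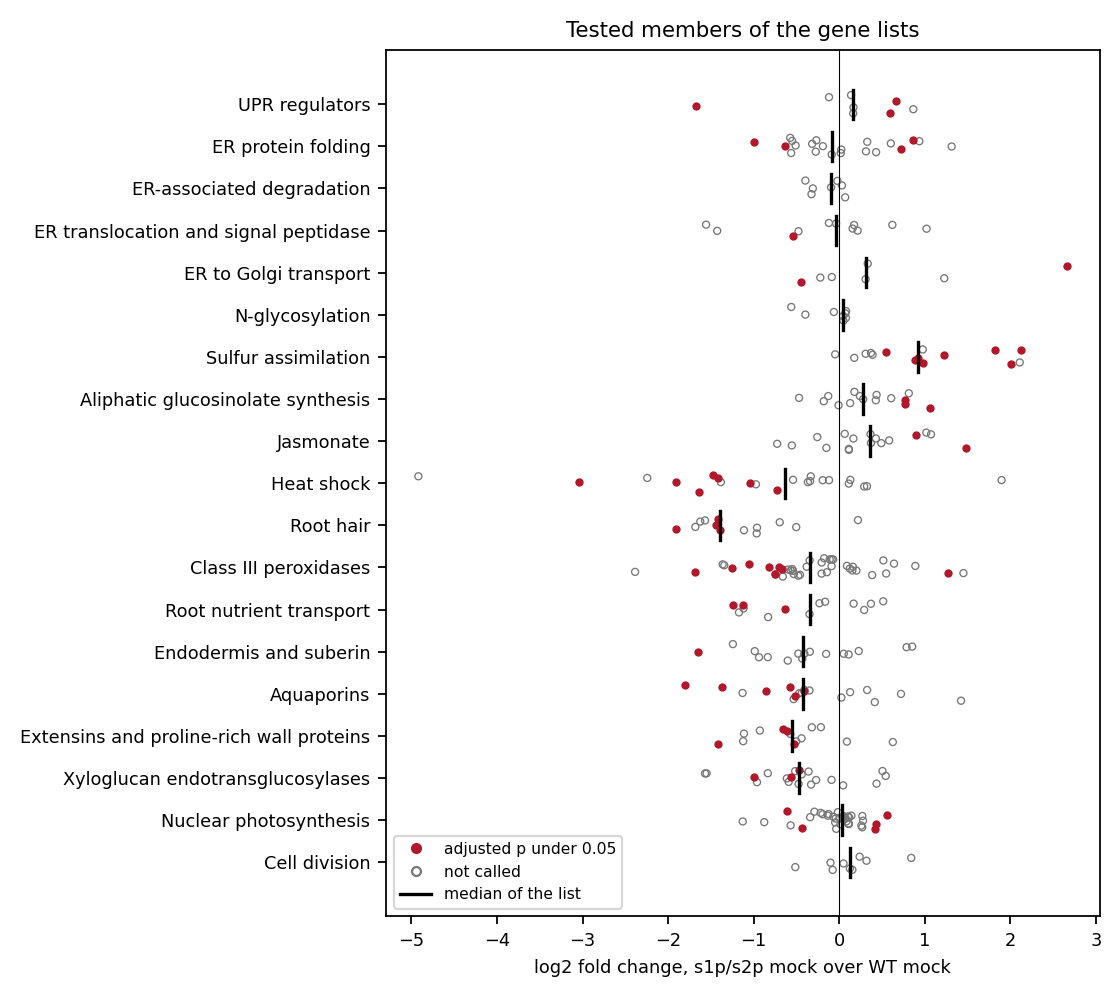
Log2 fold change of s1p/s2p mock over WT mock for the tested members of 19 gene lists; each point is a gene, filled where edgeR's adjusted p was under 0.05, and the black bar is the list's median. Sulfur assimilation has its median at 0.92 and root hair genes at -1.39, while photosynthesis genes centre on 0.03.

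A few photosynthesis genes changed (13.9% of those tested, beside 7.39% of all genes tested), while the median of the list was 0.03. PSAD-2, a photosystem I subunit, had 1291, 1231 and 1320 CPM in s1p/s2p and 822, 915 and 877 CPM in WT (0.56 ± 0.12, SE; edgeR adjusted p = 0.00189). The antenna protein gene CAB1 had 9943, 10720 and 10836 CPM in s1p/s2p and 15416, 16654 and 15884 CPM in WT (-0.61 ± 0.13, edgeR adjusted p = 0.00315). CAB1 belongs to a family of near-identical copies, so reads may have been split among them. Of lipid genes, HMG1, which makes the sterol precursor mevalonate, fell to 824, 742 and 795 CPM in s1p/s2p, against 1224, 1150.0 and 1266 CPM in WT (-0.62 ± 0.12, edgeR adjusted p = 0.000517). PIS1, a phosphatidylinositol synthase, fell by 0.68 ± 0.17. The summed sterol and isoprenoid list was 1904 to 1991 CPM in s1p/s2p, 1871 to 1907 CPM in bzip17/28 and 2505 to 2509 CPM in WT. Of 13 genes of abscisic acid and dehydration, 1 rose and 3 fell (30.8%, beside 7.39% of all genes tested). Among those that fell was the dehydrin LTI30, with 102, 111 and 89.3 CPM in s1p/s2p and 169, 215 and 163 CPM in WT (-0.86 ± 0.17).

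Heat shock genes were lower than in WT, a result that rested on single libraries. Of 22 tested, 7 fell (31.8%, beside 4.57% of all genes tested) and 17 were negative, with a median of -0.64. HSP101, a disaggregase, had 13.5, 14 and 11.3 CPM in s1p/s2p and 23.7, 19.4 and 35.7 CPM in WT (-1.05 ± 0.25, SE; edgeR adjusted p = 0.00696). HSP17.6A had 7.78, 13.4 and 3.63 CPM in s1p/s2p and 28, 8.98 and 50.2 CPM in WT, so that WT replicate 2 lay within the s1p/s2p values. HSP23.6-MITO had 1.04, 0.583 and 0.453 CPM in s1p/s2p and 6.69, 0.691 and 10 CPM in WT. Without WT replicate 3 no heat shock gene was called, and without s1p/s2p replicate 3 only 1 was. Without WT replicate 2 the count was 9. The list's median against WT was also negative in bzip17/28 (-0.501) and in the double mutants bzip28/60 (-1.438) and bzip17/60 (-1.223) under mock. Against bzip17/28, 2 of the 22 heat shock genes were called lower in s1p/s2p, beside 6.05% of all genes, and none higher.

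The largest single difference was PAP26, a purple acid phosphatase that releases phosphate in vacuole and apoplast. The gene (AT5G34850, chr5:13107626-13111656) had 1, 2 and 1 counts in the s1p/s2p libraries and 214, 171 and 268 in WT. That is 0.712 ± 0.394 CPM in s1p/s2p and 133 ± 15.8 CPM in WT (SD, n = 3 each), a log2 difference of -7.48 ± 0.28 (SE; edgeR adjusted p = 2.46e-23). The bzip17/28 libraries stood at 141, 136 and 128 CPM, and none of the other double mutants differed from WT by more than 0.05 on the log2 scale. After tunicamycin PAP26 stood at 3.22, 1.18 and 1.2 CPM in s1p/s2p and 120.2, 126 and 116 CPM in WT. MUG8 (AT5G34853, chr5:13103678-13107090), which lies beside it, had 1, 0 and 1 counts in s1p/s2p and 11, 6 and 12 in WT. The WT level was 17.37 times the s1p/s2p level, with a 95% counting interval of 4.39 to 150.2. An effect of the S1P and S2P mutations on PAP26 and MUG8 and another genetic difference of the s1p/s2p line cannot be told apart here.

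Other genes were far lower in s1p/s2p in both conditions. PTAC18, a plastid cupin protein gene, had 3.11, 1.75 and 2.27 CPM in s1p/s2p, 26.6, 26.8 and 33.5 CPM in bzip17/28 and 29.8, 33.2 and 52.4 CPM in WT (s1p/s2p minus WT -3.98 ± 0.33, SE; edgeR adjusted p = 2.08e-11). AT1G75945 had 0.518, 1.75 and 5.44 CPM in s1p/s2p and 34.7, 27 and 30.1 CPM in WT (-3.46 ± 0.33, edgeR adjusted p = 1.45e-09). AT3G48390, an MA3 domain gene, had 2.59, 1.17 and 0.906 CPM in s1p/s2p and 12.8, 11.7 and 17.8 CPM in WT (-3.16 ± 0.44, edgeR adjusted p = 7.1e-06). After tunicamycin the differences were -3.58, -3.89 and -2.99 in the same order, and each gene was lower than in bzip17/28 as well.

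Other large falls rest on few reads or on an uneven WT. AT2G25560, a DnaJ domain gene, had 149, 125 and 116 CPM in s1p/s2p and 1428, 1831 and 172 CPM in WT, and bzip17/28 was also low, at 112, 94 and 71.4 CPM. AT1G51440, a lipase-like gene, had 1, 0 and 1 counts in s1p/s2p and 18, 17 and 4 in WT, a WT level 23.4 times that of s1p/s2p with a 95% counting interval of 6.05 to 199.7. The chloroplast gene ATCG00630 had 2.59, 2.91 and 3.63 CPM in s1p/s2p and 26.8, 8.29 and 49.1 CPM in WT. AT5G03205 had 1.56, 0 and 0.453 CPM in s1p/s2p and 6.69, 16.6 and 3.35 CPM in WT. AT3G59930, which encodes a defensin-like protein, had 0.518, 0.583 and 0.906 CPM in s1p/s2p, 32.3, 25.5 and 37.9 CPM in bzip17/28 and 4.87, 6.91 and 6.69 CPM in WT.

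**Figure D4:**
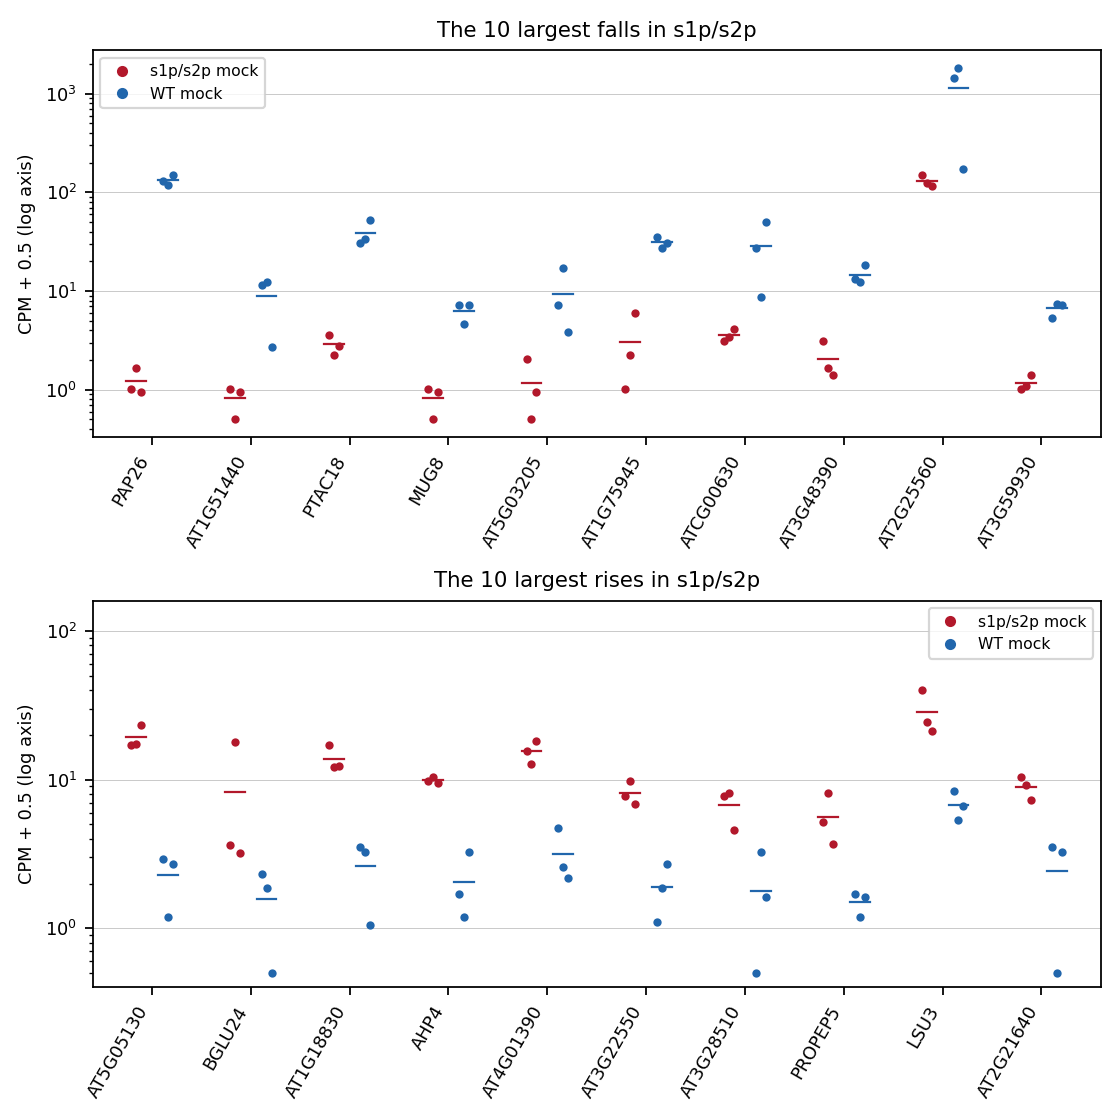
CPM + 0.5 on a log axis for the 10 largest falls (top) and 10 largest rises (bottom) of s1p/s2p mock against WT mock; points are single libraries and bars are means of 3. PAP26 stands near the floor in s1p/s2p and above 115 CPM in WT, and 1 WT library of AT2G25560 lies near the s1p/s2p values.

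The largest rise was AT5G05130, a helicase gene, with 16.6, 16.9 and 22.7 CPM in s1p/s2p and 2.43, 0.691 and 2.23 CPM in WT (3.31 ± 0.44, SE; edgeR adjusted p = 3.59e-06). It was also higher than in bzip17/28 (2.76 ± 0.38). AT4G01390, a TRAF-like protein gene, had 15, 12.2 and 17.7 CPM in s1p/s2p, 0, 0.412 and 0 CPM in bzip17/28 and 4.26, 2.07 and 1.67 CPM in WT (s1p/s2p minus WT 2.48 ± 0.47, edgeR adjusted p = 0.000635). AHP4, a phosphotransfer protein of cytokinin signalling, had 9.33, 9.9 and 9.06 CPM in s1p/s2p and 1.22, 0.691 and 2.79 CPM in WT (2.48 ± 0.54, edgeR adjusted p = 0.00276). The rule that named these genes required that s1p/s2p and WT did not overlap. BGLU24, a beta-glucosidase gene, rests on 1 library: it had 3.11, 17.5 and 2.72 CPM in s1p/s2p and 1.82, 1.38 and 0 CPM in WT, and without s1p/s2p replicate 2 its difference was 1.45 (edgeR adjusted p = 0.402). AT1G18830 (2.66, given above), AT3G22550 (2.35), AT3G28510 (2.27), the elicitor peptide precursor gene PROPEP5 (2.22), LSU3 and AT2G21640 (2.01) completed the 10 largest. The calls of AT3G28510 and PROPEP5 were each lost in 4 of the fits that left out 1 library.

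The direct contrast with bzip17/28 called 440 genes higher in s1p/s2p (4.2%) and 634 lower. Without s1p/s2p replicate 3 it called 689 genes in all, and without s1p/s2p replicate 2 it called 701. NAS2, which makes the metal chelator nicotianamine, had 71, 47.8 and 79.3 CPM in s1p/s2p and 4.43, 9.07 and 5.22 CPM in bzip17/28 (3.39 ± 0.63, SE; edgeR adjusted p = 0.000204). NAS2 had 24.3, 31.1 and 26.2 CPM in WT, below every s1p/s2p library, and did not pass the test against WT (1.29 ± 0.53, edgeR adjusted p = 0.134), though it did in 3 alternatives. NATA1, an acetyltransferase gene of the jasmonate response, had 7.78, 1.75 and 0 CPM in s1p/s2p and 78.9, 90.2 and 111 CPM in bzip17/28 (-4.89 ± 0.50, edgeR adjusted p = 4.82e-09). BZIP28, deleted by label in bzip17/28, stood there at 0.443, 0.412 and 0 CPM, and BZIP17 at 1.33, 0 and 0.435 CPM.

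The contrast of s1p/s2p with WT was also made in 6 separate libraries after 6 h of tunicamycin. The drug blocks N-glycosylation and loads the ER with misfolded proteins. A difference in library preparation between WT and the mutants cannot be told apart from genotype in this contrast either. In those 6 libraries, 3276 genes were called between s1p/s2p and WT (31.3%). The spread between replicates there was 28.2% in WT and 10.6% in s1p/s2p. The main fit shares its estimate of the spread over all 36 libraries (12.97% in common), less than that of WT after tunicamycin. With a spread per group, limma-voom called 1696 genes. Of the 774 genes called under mock, 732 had the same sign after tunicamycin in the main fit (94.6%, beside 68.9% of all genes tested). Both called and of the same sign were 566 genes, which is 73.1% of the mock calls and 17.3% of the tunicamycin calls. Of the genes that rose under mock, 203 were called higher and 1 lower after tunicamycin. Of the genes that fell, 363 were called lower and 2 higher. Root hair genes had 10 of 13 members lower after tunicamycin, where 16.9% of all genes were called lower. RHS19 stood at 2.3, 6.31 and 5.98 CPM in s1p/s2p and at 19.3, 32.5 and 41.3 CPM in WT. Sulfur assimilation again had 8 of 15 higher and none lower, in a contrast where 14.4% of all genes were called higher. The heat shock list did not keep its direction, with 7 of 22 genes higher, beside the same 14.4%, and none lower.

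**Figure D5:**
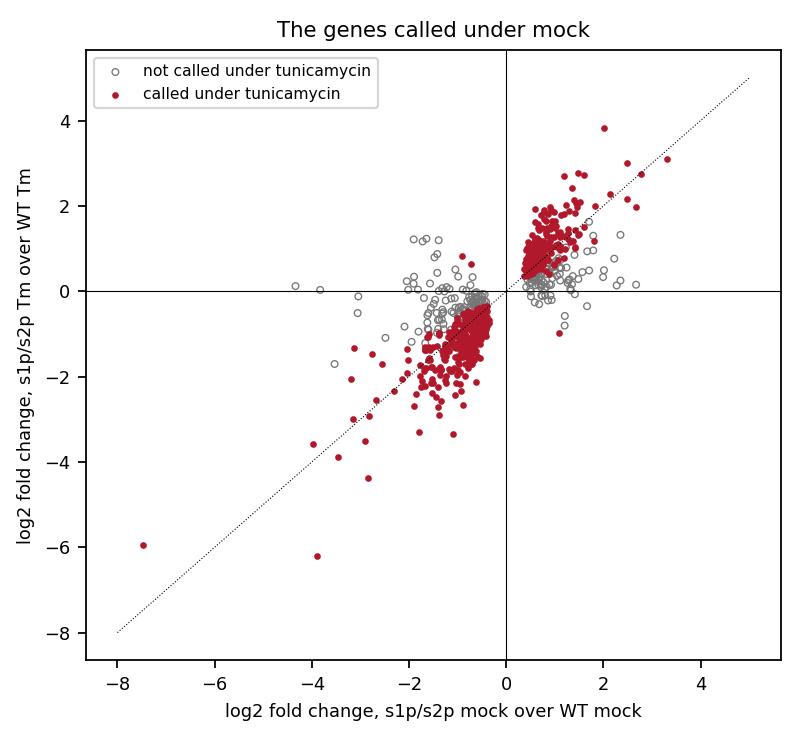
Log2 fold change of s1p/s2p over WT under mock (x axis) and under tunicamycin (y axis) for the 774 genes called under mock; filled points were also called under tunicamycin, and the dotted line marks equal differences. Of these genes 732 share their sign, and PAP26 lies farthest left at -7.48.

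After tunicamycin AT1G18830 reached 150.0, 165 and 158 CPM in s1p/s2p and 42.4, 38 and 39.7 CPM in WT (1.98 ± 0.18, SE; edgeR adjusted p = 1.18e-10), higher in s1p/s2p as it was under mock. BZIP60, higher under mock, differed by 0.15 after tunicamycin (edgeR adjusted p = 0.353). Over all genes tested, the difference itself changed between the conditions for 200 (1.91%), and neither AT1G18830 nor BZIP60 was among them.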

How the data were processed

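Whole seedlings were sequenced from 3′ ends. The authors deposited raw counts of reads per transcript model; per the submitters' processing notes, reads were trimmed with Trim Galore 0.2.8, aligned with TopHat2 2.1.1 and counted with HTSeq 0.6.0. The build, annotation and strand setting are not given in the sources used here, and 97.3% of the model names match RefSeq's TAIR10.1. About 40% of reads were set aside as ambiguous before deposit. Models were summed per locus, giving 37336 loci. edgeR 4.0.16 (R 4.3.3) fitted all 36 libraries with TMM factors, its quasi-likelihood test and a count minimum of 10 (filterByExpr), with Benjamini-Hochberg adjustment at 0.05. The fit was checked on simulated data. Ratios have 95% counting intervals, which cover counting error only. The labels do not say whether replicates were separate cultures, and the p-values therefore reflect sample-to-sample spread that could be technical. Alternatives used DESeq2 1.42.0, limma 3.58.1, other scalings and filters, and left-out libraries. The members and gene lists were chosen with earlier results of these data known, and the name patterns behind the family lists were corrected against the RefSeq gene table. Named genes were the 10 largest rises and the 10 largest falls among called genes that averaged 5 CPM or more in the higher group, their libraries not overlapping, the 3 lowest p in each list, 6 rises and falls against bzip17/28, and fixed UPR genes.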

Additional observations from a re-analysis of the deposited data

Results flagged for a closer look

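For 11 named genes the s1p/s2p minus WT difference was not the same after tunicamycin as under mock, by the test of the difference itself (edgeR's quasi-likelihood test of the interaction, adjusted over all genes tested, of which 1.91% were called). Each value is the log2 difference after tunicamycin minus that under mock, with its SE. This test was run in the main fit only, and no alternative was tried. The fit shares its estimate of the spread over all groups, while WT after tunicamycin had a spread of 28.2% between replicates.

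Of ER folding genes, 5 had a lower s1p/s2p minus WT difference after tunicamycin than under mock. Over the 21 tested genes of the ER folding list, 5 were called higher and 10 lower than in WT after tunicamycin. That contrast called 14.4% of all genes higher and 16.9% lower. The change was -2.25 ± 0.25 for CRT1b (adjusted p = 4.26e-07), which differed by -2.80 after tunicamycin and -0.55 under mock. It was -1.49 ± 0.21 for PDIL1-1 (adjusted p = 8.74e-05) and -1.21 ± 0.22 for ATERDJ3B (adjusted p = 0.00387). SDF2 changed by -1.0015 ± 0.24 (adjusted p = 0.0208). BIP1, which differed by 0.02 under mock, changed by -0.78 ± 0.19 (adjusted p = 0.0318).

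Of glucosinolate and jasmonate synthesis genes, 3 lay further above WT after tunicamycin. The change was 1.08 ± 0.21 for UGT74B1 (adjusted p = 0.00494), 1.08 ± 0.29 for SOT16 (adjusted p = 0.0464) and 1.09 ± 0.28 for AOS (adjusted p = 0.0356).

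The difference of HSP101 changed by 1.555 ± 0.41 (adjusted p = 0.0403), with -1.05 under mock and 0.51 after tunicamycin. That of the peroxidase gene AT3G01190 changed by -1.37 ± 0.35 (adjusted p = 0.033). AT1G51440 changed by 4.4566 ± 1.2046 (adjusted p = 0.0436), with a difference of 0.12 after tunicamycin. The mock value of AT1G51440 rests on 2 counts over the s1p/s2p libraries.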

How the results depend on the processing

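Of 97 named genes tested, 81 were called, 37 of them in every alternative that tested them (13 to 16 each), and none changed direction where it was called. Library size alone gave 481 genes higher than in WT, of 821 called. A fit of only the 15 mock libraries gave 1203 calls (482 higher, 721 lower). Leaving out 1 library left 435 to 625 calls, with 155 to 251 higher and 273 to 374 lower. DESeq2 called 729 genes. Against bzip17/28, limma-voom called 1638 genes (742 higher), a fit of only the libraries compared 1683 (784 higher), and leaving out 1 library 689 to 953 (232 to 371 higher, 415 to 582 lower). After tunicamycin, limma-voom called 1696 genes (697 higher, 999 lower) and the fit of only the libraries compared 1385 (629 higher, 756 lower). The cause of these shifts was not tested. With the replicate number as a block, 740 genes were called against WT, 1017 against bzip17/28 and 3257 after tunicamycin. After the mean of its group was taken off each gene, same-numbered mock libraries of s1p/s2p and WT correlated at -0.04 to 0.064. Differently numbered ones correlated at -0.064 to 0.058, so no pairing by number was seen. Libraries of 1559173 to 2176744 counts leave genes of few reads poorly resolved.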
